A study of Mus musculus with 9 samples.

Results

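CC chemokines are small secreted proteins that draw leukocytes into tissue, and 10 genes of this system were followed here out of the 52550 genes listed in a count table of mouse ear epidermis. The 10 genes, chosen by symbol, were Ccl20 and its receptor Ccr6, the monocyte attractants Ccl2 and Ccl7, the inflammatory chemokines Ccl3, Ccl4 and Ccl5, the CCR4 ligands Ccl17 and Ccl22, and the skin chemokine Ccl27a. RNA was sequenced from epidermal sheets of wild type C57BL/6 mice aged 8 weeks, in 3 groups of 3 libraries. The VAS+H2O group received Vaseline on the skin and water by gavage, the IMQ+H2O group imiquimod cream and water, and the IMQ+XYF group imiquimod cream and XYF (Xiao-Yin-Fang), a decoction of 5 herbs. Gavage of 200 µl ran for 10 days, the decoction was at 23.3 mg/g, and the cream or Vaseline was applied during 5 of these days. Imiquimod is an agonist of Toll-like receptor 7 and gives psoriasis-like inflammation. No analysed group received XYF with Vaseline. The methods name a pair of mice as the source of the ear sheets without saying whether each library was such a pool, so the p-values below measure the spread between libraries, which may be partly technical.

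CC chemokines act through G protein-coupled receptors on leukocytes, and several ligands share a receptor. CCL20 is the chemokine ligand of CCR6, which is carried by IL-17-producing T cells, including γδ T cells, and by some dendritic cells and B cells. Keratinocytes make CCL20 when exposed to IL-17 and to other inflammatory cytokines. CCL27 is made by keratinocytes and binds CCR10 on skin-homing T cells.

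Sequences upstream of the start sites of 3 chemokine genes are shown first, because their transcripts behaved differently across the libraries: Ccl20 was high in all 6 imiquimod libraries, Ccl22 was raised less, and Ccl3 was high in 3 libraries of 6. Each is the stretch of 250 bases before the RefSeq start site in GRCm38.p6, read 5′ to 3′ on the strand of the gene. Capitals mark matches, on either strand, to an approximate NF-κB site, GGG and CC separated by any 5 bases. The Ccl20 window lies at chr1:83116516-83116765 on the plus strand, the Ccl22 window at chr8:94745434-94745683 on the plus strand and the Ccl3 window at chr11:83649379-83649628 on the minus strand.
Ccl20: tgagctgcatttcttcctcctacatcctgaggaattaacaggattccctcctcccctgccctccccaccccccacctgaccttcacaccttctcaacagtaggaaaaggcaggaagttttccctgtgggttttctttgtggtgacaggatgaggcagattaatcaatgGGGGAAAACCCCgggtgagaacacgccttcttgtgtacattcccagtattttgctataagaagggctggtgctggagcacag
Ccl22: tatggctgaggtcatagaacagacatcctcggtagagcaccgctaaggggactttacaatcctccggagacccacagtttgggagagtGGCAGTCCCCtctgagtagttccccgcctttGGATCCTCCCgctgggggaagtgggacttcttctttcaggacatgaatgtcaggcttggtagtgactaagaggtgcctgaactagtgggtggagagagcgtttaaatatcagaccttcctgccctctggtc
Ccl3: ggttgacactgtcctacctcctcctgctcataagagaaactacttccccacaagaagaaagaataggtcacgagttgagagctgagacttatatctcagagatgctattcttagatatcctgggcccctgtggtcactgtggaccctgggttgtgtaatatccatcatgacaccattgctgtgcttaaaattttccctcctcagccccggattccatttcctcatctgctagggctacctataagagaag

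The Ccl20 window held 3 overlapping matches between 82 and 71 bases before the start site. The Ccl22 window held 2 matches, and the Ccl3 window held 0. These letters are common, since 45.8% of the 32851 mouse promoter windows of this length held a match. The AP-1 letters TGANTCA, in 6.75% of all windows, the STAT letters TTCNNNGAA, in 7.02%, and the letters TATAAA, in 12.4%, had no match in these 3 windows. RefSeq windows were found for 6 of the 10 genes: Ccl20, Ccl22, Ccl3, Ccl17, Ccl27a and Ccr6. The Ccl17 window held 1 match to the STAT letters. Ccl27a, with 3 alternative start sites, had 1 match to the AP-1 letters, in 1 window, and Ccr6 had 2 matches to the STAT letters before 1 of its 2 start sites. The NF-κB letters had 1 and 2 matches in the other 2 Ccl27a windows, 2 in the other Ccr6 window and 0 in the Ccl17 window. Ccl2, Ccl7, Ccl4 and Ccl5 were not in the RefSeq table used. The matches are letters in a window, were not measured for binding and were not tested against transcript levels.

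In the annotation (GENCODE M21, GRCm38), Ccl20 lies on chromosome 1 (83116766 to 83119167) and Ccr6 on chromosome 17 (8236043 to 8257141). Chromosome 11 carries Ccl2 (82035571 to 82037453) beside Ccl7 (82045712 to 82047525), and further along Ccl5 (83525778 to 83530518), Ccl3 (83647844 to 83649355) and Ccl4 (83662584 to 83664683). Ccl22 (94745590 to 94751699) and Ccl17 (94810453 to 94812036) are neighbours on chromosome 8, and Ccl27a lies on chromosome 4 (41769467 to 41774247). The transcripts of 9 genes shared no stretch of 50 bases with another gene. Those of Ccl27a shared 45.0% of such stretches with 5 other genes, so its reads could be divided among near-identical copies and its counts are uncertain.

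Library totals ran from 30298275 to 64771160 counts, and a floor of 3 counts, which covers counting error only, stood at 0.0471 to 0.104 counts per 1000000 (CPM) after scaling by the trimmed mean of M-values (TMM). Keratinocyte markers dominated every library, with a summed level of 37352 to 61836 CPM, and Langerhans cell markers reached 625 to 818 CPM. Some libraries stood apart. Markers of neutrophils, infiltrating granulocytes, summed to 14.6 to 18.3 CPM in VAS+H2O, 280 to 2193 CPM in IMQ+H2O and 593 to 919 CPM in IMQ+XYF. The defining neutrophil marker Ly6g had 22 counts in IMQ+H2O replicate 3, 16 in IMQ+XYF replicate 1, 3 in IMQ+XYF replicate 3 and 0 in the other 6 libraries. Fibroblast markers reached 646 CPM in VAS+H2O replicate 2, against 48.0 to 210.2 CPM in the 6 imiquimod libraries. Cartilage markers, which come from below the epidermis of the ear, differed by group, at 189 to 447 CPM in VAS+H2O, 37.0 to 80.8 CPM in IMQ+H2O and 136 to 195 CPM in IMQ+XYF. By edgeR, 6 of 6 cartilage markers tested were called lower in IMQ+H2O than VAS+H2O, where 4.04% of all genes tested were called lower. In IMQ+XYF against IMQ+H2O, 2 of 6 were called higher, among 5 genes (0.0281%) called higher in all. The part of this difference between sheets in the comparisons below was not tested. Such differences can come from more cells of a type or from more RNA per cell, which cannot be told apart in bulk sheets.

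The first comparison asked which chemokines imiquimod raised. Of the 10 genes, 5 passed the filter on low counts in IMQ+H2O and VAS+H2O, and Ccl20, Ccl2, Ccl7 and Ccl22 rose. A gene was called when its adjusted p in edgeR's quasi-likelihood test was at most 0.05 and its absolute log2 fold change at least 1. By this rule, in which the adjusted p came from the Benjamini-Hochberg method, 3.64% of the 18009 genes tested were called higher and 4.04% lower, 7.68% in all. The median log2 fold change of the 5 tested genes was 1.99, and that of all genes tested was -0.03. The groups did not overlap for these 4 genes, as for 23.4% of all genes tested in the same direction and 21.6% in the other. DESeq2 called 3 of them, without Ccl7, where it called 4.14% of its genes higher. The counts of tested genes describe those with enough reads, which can include genes that pass because imiquimod raised them. Ccl2 and Ccl7, scarce in VAS+H2O, passed through IMQ+H2O, so only a rise could be called for them. The counts and the median above include both. Ccl20, Ccl22 and Ccl27a had enough reads in VAS+H2O as well.

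Ccl20 had the highest level among them under imiquimod. Its counts were 164, 154 and 274 in VAS+H2O replicates 1 to 3, 3703, 3592 and 5625 in IMQ+H2O, and 11625, 4959 and 4248 in IMQ+XYF. Scaled to library size, these were 3.47, 4.67 and 7.86 CPM with VAS+H2O, 128, 93.4 and 130.2 CPM with IMQ+H2O and 183, 153 and 121 CPM with IMQ+XYF. Every imiquimod library was far above every Vaseline library, and IMQ+H2O and IMQ+XYF overlapped. The group mean was 5.33 ± 2.27 CPM with VAS+H2O and 117 ± 20.6 CPM with IMQ+H2O (SD, n = 3 each), a 22.0-fold difference of the means. This corresponded to a log2 fold change of 4.45 with an SE of 0.32 and a 95% interval of 3.68 to 5.22 (adjusted p = 0.0021 in edgeR).

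**Figure D1:**
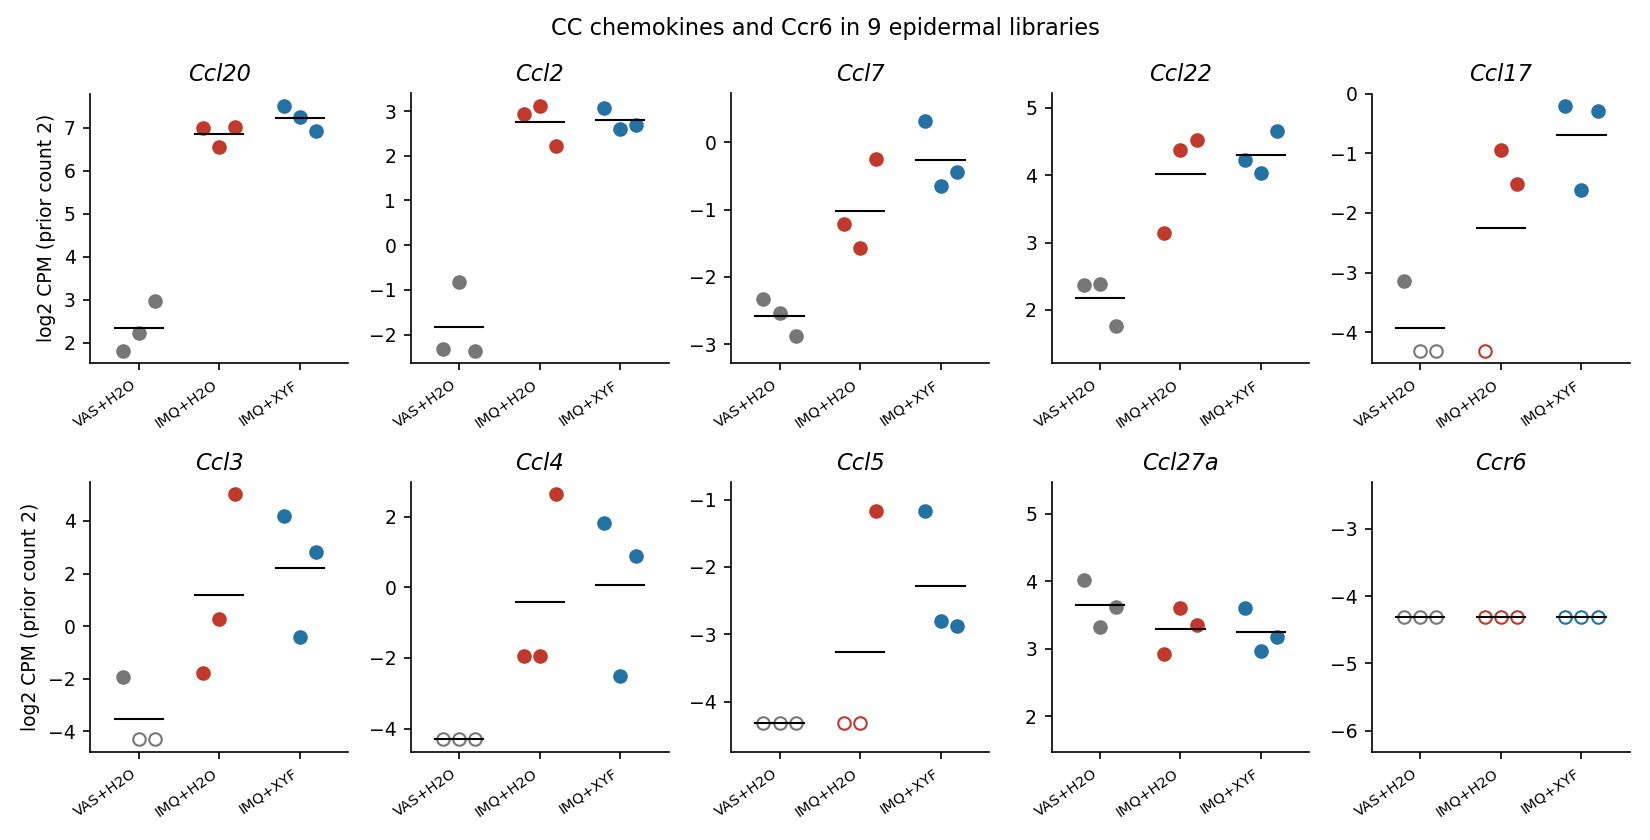
Levels of the 10 genes in each library as log2 CPM with a prior count of 2, by group, each panel with its own vertical axis. Points are libraries in the order of replicates 1 to 3, open points have fewer than 3 counts, and lines are means of the log2 values. Ccl20, Ccl2, Ccl7 and Ccl22 lie higher in all 6 imiquimod libraries than in the 3 Vaseline libraries, and Ccr6 is at 0 counts in all 9.

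CCR6 was not detected beside its ligand. Ccr6 had 0 counts in all 9 libraries, which allows up to 0.0471 to 0.104 CPM per library for counting error alone. 12 housekeeping genes had at least 900 counts in every library, but such high counts cannot show whether very low ones were lost. Whether the counting step sets low values to 0 is not given in the sources used here. If it does, the limit for Ccr6 is higher than counting error alone allows. The table therefore gives no fold change for Ccr6.

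Ccl2, also called MCP-1, attracts monocytes through CCR2. Its levels were 0.148, 0.516 and 0.143 CPM with VAS+H2O, 7.60, 8.63 and 4.61 CPM with IMQ+H2O and 8.39, 6.01 and 6.44 CPM with IMQ+XYF. The 6 imiquimod libraries were all above the Vaseline libraries and mixed with each other. The Vaseline values rest on 7, 17 and 5 counts, and the highest is that of replicate 2, the library with the high fibroblast markers, whose part in the value was not tested. The log2 fold change of IMQ+H2O over VAS+H2O was 4.70 with an SE of 0.54 (95% interval 3.41 to 5.99, adjusted p = 0.0064 in edgeR).

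Ccl7, also called MCP-3, is the neighbour of Ccl2 and shares the receptor CCR2. It was scarce, at 7, 4 and 3 counts with VAS+H2O, 11, 11 and 34 with IMQ+H2O and 76, 19 and 24 with IMQ+XYF. The groups with and without imiquimod did not overlap once scaled, at 0.0860 to 0.148 CPM against 0.286 to 1.19 CPM. The log2 fold change of IMQ+H2O over VAS+H2O was 1.99 with an SE of 0.55 (adjusted p = 0.0441 in edgeR). The adjusted p was 0.0683 in DESeq2 and ran from 0.0455 to 0.120 in edgeR with single libraries left out, so the call depended on the method and on single libraries.

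The CCR4 ligands are made mainly by dendritic cells and macrophages. Ccl22 was at 5.14, 5.19 and 3.36 CPM with VAS+H2O, 8.78, 20.7 and 22.8 CPM with IMQ+H2O and 18.7, 16.3 and 25.1 CPM with IMQ+XYF. All imiquimod libraries exceeded all Vaseline libraries, with IMQ+H2O replicate 1 the lowest of them. The log2 fold change of IMQ+H2O over VAS+H2O was 1.92 with an SE of 0.38 (95% interval 1.02 to 2.82, adjusted p = 0.0177 in edgeR). Without VAS+H2O replicate 1 the adjusted p was 0.0528, and without VAS+H2O replicate 2 it was 0.0537, so 2 of the 4 calls, those of Ccl20 and Ccl2, remained in each case. The same 2 remained without VAS+H2O replicate 2 and IMQ+H2O replicate 3 together, an alternative chosen after seeing the data.

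Ccl17, the other CCR4 ligand, did not reach the count filter in this comparison. Its counts were 3, 0 and 0 with VAS+H2O, 0, 18 and 13 with IMQ+H2O and 52, 9 and 27 with IMQ+XYF. IMQ+H2O replicate 1 and 2 of the Vaseline libraries were at 0, so these groups overlapped. The summed counts of 31 against 3 gave a ratio of 10.8 per library size, with a 95% counting interval of 3.35 to 55.0.

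Ccl27a was the exception among the abundant genes. It was at 16.1, 9.96 and 12.3 CPM with VAS+H2O, 7.57, 12.2 and 10.2 CPM with IMQ+H2O and 12.1, 7.77 and 9.01 CPM with IMQ+XYF. The 3 groups overlapped. The log2 fold change of IMQ+H2O over VAS+H2O was -0.37 with an SE of 0.24 (95% interval -0.93 to 0.19, adjusted p = 0.296 in edgeR), and the change was not called. The interval leaves room for a fall of nearly 1 on the log2 scale.

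Ccl3, Ccl4 and Ccl5, which attract monocytes and T cells, varied widely within the imiquimod groups. Ccl3, known as MIP-1α, had 10, 0 and 0 counts with VAS+H2O, 7, 45 and 1394 with IMQ+H2O and 1157, 23 and 245 with IMQ+XYF. Ccl4, known as MIP-1β, had 0 counts in all 3 VAS+H2O libraries, 6, 8 and 266 in IMQ+H2O, and 221, 4 and 63 in IMQ+XYF. Both were high in IMQ+H2O replicate 3, IMQ+XYF replicate 1 and IMQ+XYF replicate 3, and low in the other 3 imiquimod libraries. Ccl5, known as RANTES, had 0 counts in VAS+H2O, 17 in IMQ+H2O replicate 3 and 0 in the other 2 of that group, and 25, 3 and 3 in IMQ+XYF. In the 5 imiquimod libraries other than IMQ+H2O replicate 1, Ccl4 had 0.174 to 0.257 counts for each Ccl3 count. In IMQ+H2O replicate 1 the ratio was 0.857, from 6 and 7 counts.

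The filter kept all 3 genes out of the test of IMQ+H2O against VAS+H2O. Ccl3 entered it in some alternatives, and was called in the fit of all 9 libraries, with a log2 fold change of 7.03 (adjusted p = 0.0430 in edgeR), and without IMQ+H2O replicate 1, with 7.63 (adjusted p = 0.0436). It was not called without the filter (adjusted p = 0.0705) or with any 1 Vaseline library left out (adjusted p = 0.138 to 0.155). Against a floor of 3 counts per library in VAS+H2O, the mean Ccl4 level was at least 27.3-fold higher in IMQ+H2O. That mean rested on replicate 3, at 6.16 CPM, while replicates 1 and 2 were at 0.207 and 0.208 CPM.

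Ccl3 and Ccl4 were highest in the 3 libraries highest in 5 neutrophil markers. The sum of all 7 neutrophil markers and that of monocyte and macrophage markers each followed Ccl3 and Ccl4 only in part. With the alarmins S100a8 and S100a9 left out, since keratinocytes also make them, the other 5 neutrophil markers summed to 157 CPM in IMQ+H2O replicate 3, 97.2 CPM in IMQ+XYF replicate 1 and 67.9 CPM in IMQ+XYF replicate 3. The remaining imiquimod libraries were at 49.6 to 63.3 CPM and the Vaseline libraries at 10.7 to 12.9 CPM. Ccl3 stood in the same order, at 32.3, 18.2 and 6.98 CPM in these 3 libraries, and so did Ccl4, at 6.16, 3.47 and 1.80 CPM. With S100a8 and S100a9 included the order differed, since IMQ+XYF replicate 2, low in Ccl3, then held 919 CPM and IMQ+XYF replicate 1 held 732 CPM. Of the 7 neutrophil markers, S100a8 and S100a9 included, 3 were tested in IMQ+H2O against VAS+H2O and all 3 were called higher. The share of all genes tested was 3.64%. This count does not stand for the 5 markers alone. Ly6g was at 0 in the 3 imiquimod libraries low in Ccl3. Ccl20 was at 130.2 CPM in IMQ+H2O replicate 3 and at 128 CPM in replicate 1, which had the fewest neutrophil markers of the group. Ccl2 was lowest among imiquimod libraries in IMQ+H2O replicate 3. Markers of monocytes and macrophages summed to 128 CPM in IMQ+H2O replicate 3 and 99.0 CPM in IMQ+XYF replicate 1, against 40.1 to 60.2 CPM in the other 4 imiquimod libraries and 41.3 to 50.7 CPM with Vaseline. IMQ+XYF replicate 3, at 53.3 CPM, did not stand apart in that sum and was below IMQ+H2O replicate 2, at 60.2 CPM. Among these markers Cd14, a receptor subunit for lipopolysaccharide, was named after its values were seen. It was at 50.4, 31.7 and 10.9 CPM in the 3 libraries high in Ccl3 and at 1.76 to 2.68 CPM in the other imiquimod libraries. These Cd14 values are part of the sums above. The part of either cell type in the Ccl3 and Ccl4 levels was not tested.

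**Figure D2:**
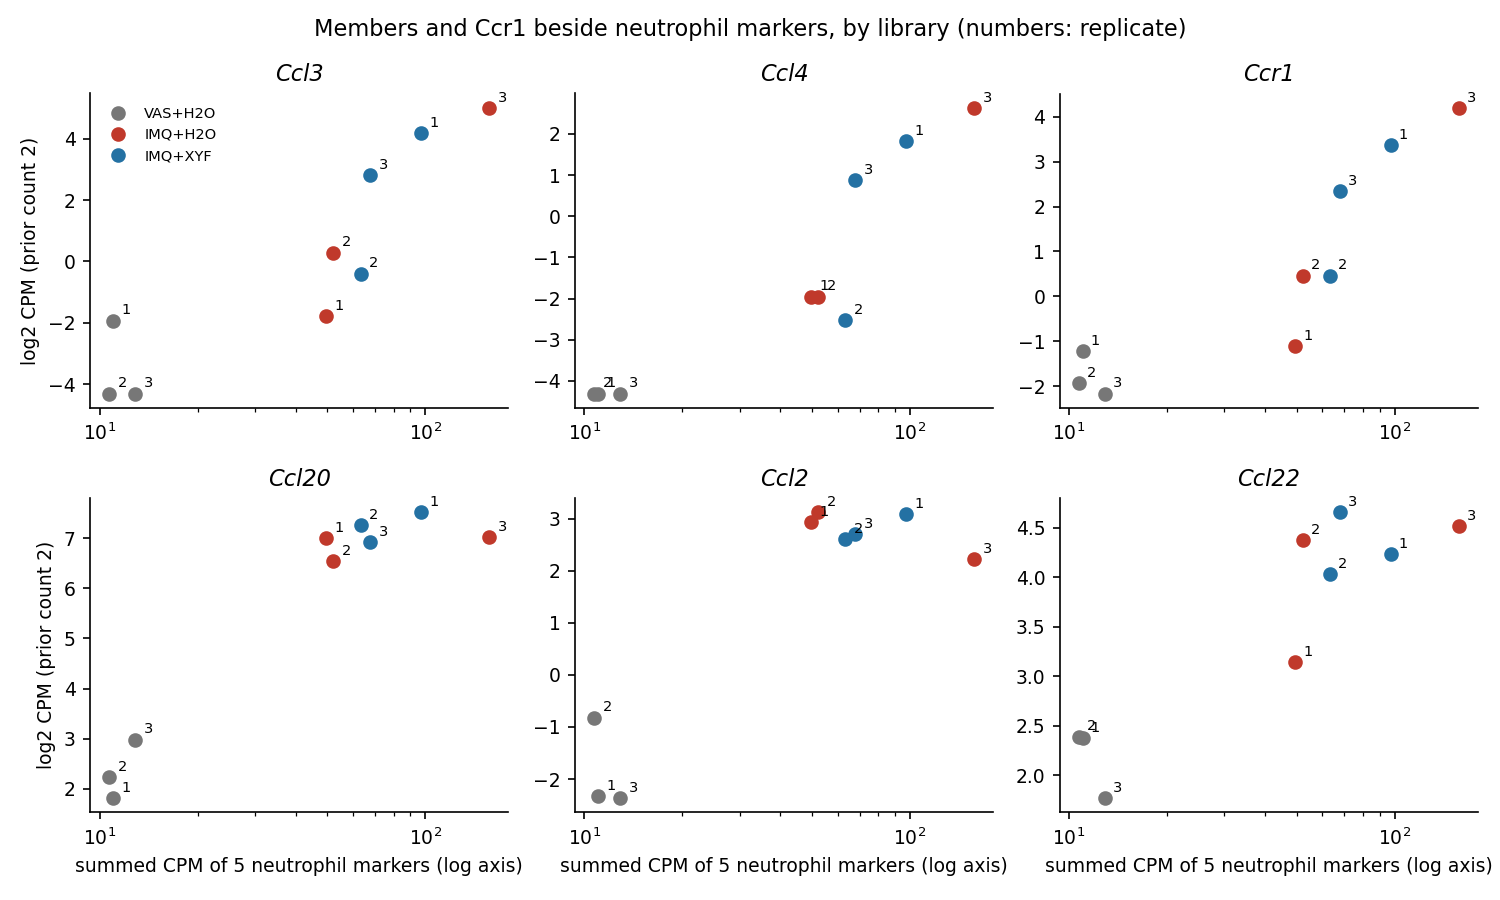
Level of 5 members and of Ccr1, as log2 CPM with a prior count of 2, against the summed CPM of 5 neutrophil markers (Csf3r, Cxcr2, Ly6g, Retnlg and Clec4d) on a log axis. Points are the 9 libraries and the small digits are replicate numbers. Ccl3, Ccl4 and Ccr1 are highest in IMQ+H2O replicate 3, IMQ+XYF replicate 1 and IMQ+XYF replicate 3, while Ccl20 and Ccl2 are high in all 6 imiquimod libraries.

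The second comparison asked whether XYF altered the chemokines under imiquimod. None of the 8 members tested was called between IMQ+XYF and IMQ+H2O by edgeR, where 0.0281% of the 17793 genes tested were called, all of them higher. At an unadjusted p under 0.05 the number was 0 of 8, against 5.43% of all genes tested, and DESeq2 called 0 where it called 0.757% of all genes. The median log2 fold change of the 8 genes was 0.11, and that of all genes tested was 0.00. The 2 groups overlapped for all 8 genes, where 5.99% of all genes tested were higher without overlap and 4.67% lower. At such shares, 0 of 8 does not set the members apart from other genes.

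The precision of this comparison differed among the genes. For Ccl20, 152 ± 30.8 CPM (SD, n = 3) in IMQ+XYF stood against 117 ± 20.6 CPM in IMQ+H2O, with a log2 fold change of 0.38 and an SE of 0.18. Its 95% interval of -0.05 to 0.82 holds no halving and no doubling. For Ccl2, the means were 6.95 ± 1.27 and 6.95 ± 2.09 CPM, and the interval of the log2 fold change was -0.60 to 0.63. For Ccl27a it was -0.59 to 0.51, and for Ccl22 it was -0.63 to 1.04. These 4 intervals exclude a fall by 1 or more on the log2 scale, and only that of Ccl22 extends to a rise of 1. Ccl7, with a log2 fold change of 0.77, had an interval of -0.38 to 1.92, and Ccl17, with 1.24, one of -0.83 to 3.31.

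Ccl3 and Ccl4 could not be resolved. Their log2 fold changes of IMQ+XYF over IMQ+H2O were -0.37 with an SE of 1.57 and -0.27 with an SE of 1.40, and the Ccl3 interval ran from -4.10 to 3.37. Without IMQ+H2O replicate 3, the values turned to 3.57 for Ccl3 (adjusted p = 0.492 in edgeR) and 3.12 for Ccl4 (adjusted p = 0.494). Without IMQ+XYF replicate 1, the Ccl3 value was -1.55. Without IMQ+XYF replicate 2 they were 0.17 and 0.26, so the sign of both genes rested on single libraries. Ccl5 was too scarce for the test, and Ccr6 was at 0 in both groups.

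**Figure D3:**
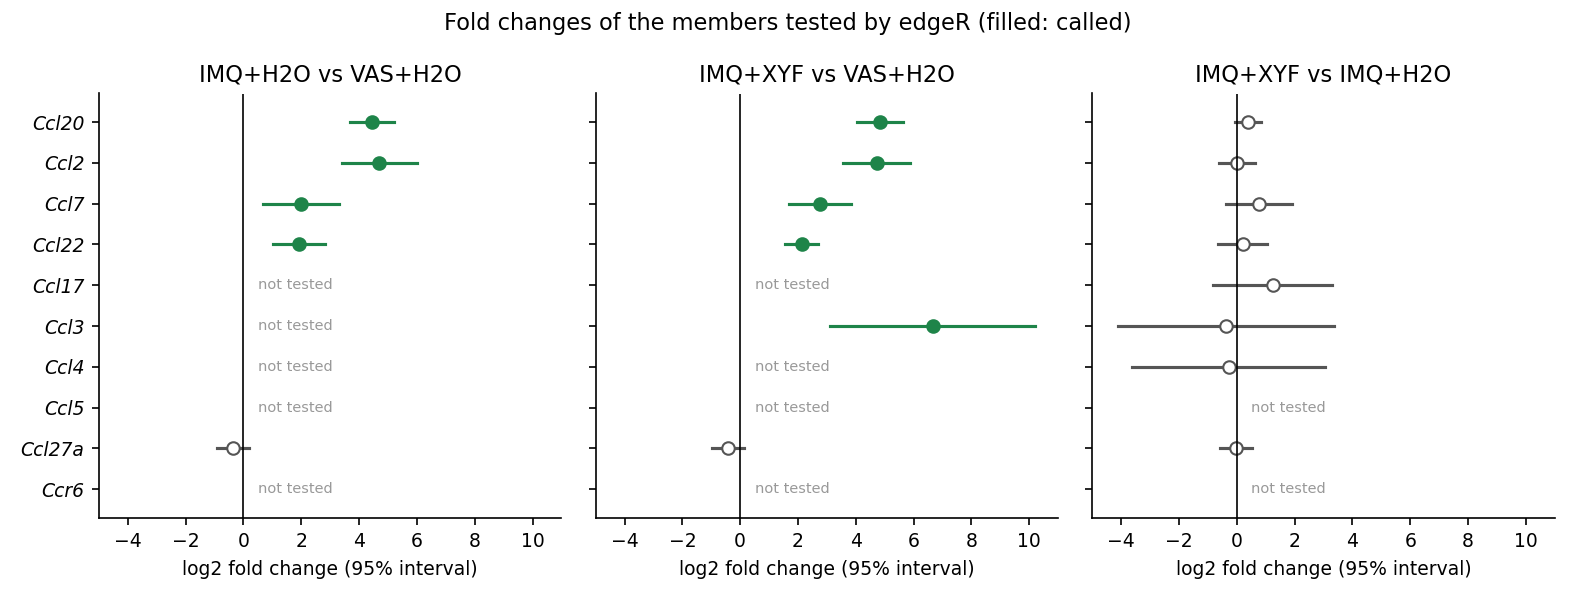
Log2 fold changes of the 10 genes in the 3 comparisons, with 95% intervals from edgeR. Filled green points were called and open points were not, and genes below the count filter are written as not tested. Ccl20 and Ccl2 lie above 4 in both comparisons with VAS+H2O and near 0 between IMQ+XYF and IMQ+H2O, where the intervals of Ccl3 and Ccl4 are the widest.

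The third comparison set IMQ+XYF beside the same Vaseline libraries, so it shares its controls with the first. Of 6 members tested, Ccl20, Ccl2, Ccl7, Ccl3 and Ccl22 rose and none fell, where 4.58% of 17954 genes were called higher and 3.05% lower, 7.64% in all. The groups did not overlap for these 5 genes, as for 25.1% of all genes tested in the same direction and 22.4% in the other. As in the first comparison, the tested genes can include those that pass the filter because imiquimod raised them. Ccl3, with 10, 0 and 0 counts in VAS+H2O and 1157, 23 and 245 in IMQ+XYF, passed through IMQ+XYF, so only a rise could be called for it. The same holds for Ccl2 and Ccl7, which were scarce in VAS+H2O. DESeq2 called 7 members, with Ccl4 and Ccl17 added, where it called 4.91% of its genes higher. The log2 fold changes were 4.84 with an SE of 0.33 for Ccl20 (adjusted p = 5.9e-04 in edgeR) and 4.72 with an SE of 0.49 for Ccl2 (adjusted p = 0.0015). Ccl7 was at 2.76 with an SE of 0.45 (adjusted p = 0.0058), and Ccl22 at 2.13 with an SE of 0.24 (adjusted p = 0.0018). Ccl27a was at -0.41 with an SE of 0.23 and was not called. The Ccl3 value of 6.66 had an SE of 1.49 (adjusted p = 0.0176), and with any 1 of the Vaseline libraries left out its adjusted p was 0.0534 to 0.0574. Ccl4 was not tested, and its mean was at least 22.4-fold above a floor of 3 counts per library in VAS+H2O. Without the libraries VAS+H2O replicate 2 and IMQ+XYF replicate 1, an alternative chosen after seeing the data, 3 of the 5 calls were made, those of Ccl20, Ccl2 and Ccl22, and Ccl7 (adjusted p = 0.0549) and Ccl3 (adjusted p = 0.0976) were not.

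Levels of different genes were compared only after division by exon length, in CPM per kb. In VAS+H2O, Ccl27a led with 5.38 ± 1.31 (SD, n = 3), followed by Ccl20 with 3.75 ± 1.60, whose range overlapped that of Ccl27a, and by Ccl22 with 1.96 ± 0.450, whose highest library was below the lowest of Ccl20. All other members were below 0.5 CPM per kb. In IMQ+H2O, Ccl20 led with 82.5 ± 14.5 CPM per kb, and its lowest library, at 65.7, was above the highest library of every other member. Ccl3 followed with 14.7 ± 23.8, a mean set by 1 library at 42.1, then Ccl22 with 7.50 ± 3.26, Ccl2 with 6.11 ± 1.84, Ccl27a with 4.19 ± 0.971 and Ccl4 with 3.32 ± 5.21. The ranges of neighbours in this order overlapped below Ccl20. In IMQ+XYF, Ccl20 was at 107 ± 21.7 CPM per kb, and the order of Ccl3, Ccl22, Ccl2 and Ccl27a was as in IMQ+H2O, at 11.3 ± 11.6, 8.62 ± 1.96, 6.11 ± 1.11 and 4.05 ± 0.942. The Ccl27a values count reads that its near-identical copies could also claim. They also rest on an exon length of 2377 bases joined over 19 transcripts. Ccl27b, with 425 bases, was at 14.4 CPM per kb in IMQ+H2O. The place of Ccl27a in these orders can therefore depend on the length taken.

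**Figure D4:**
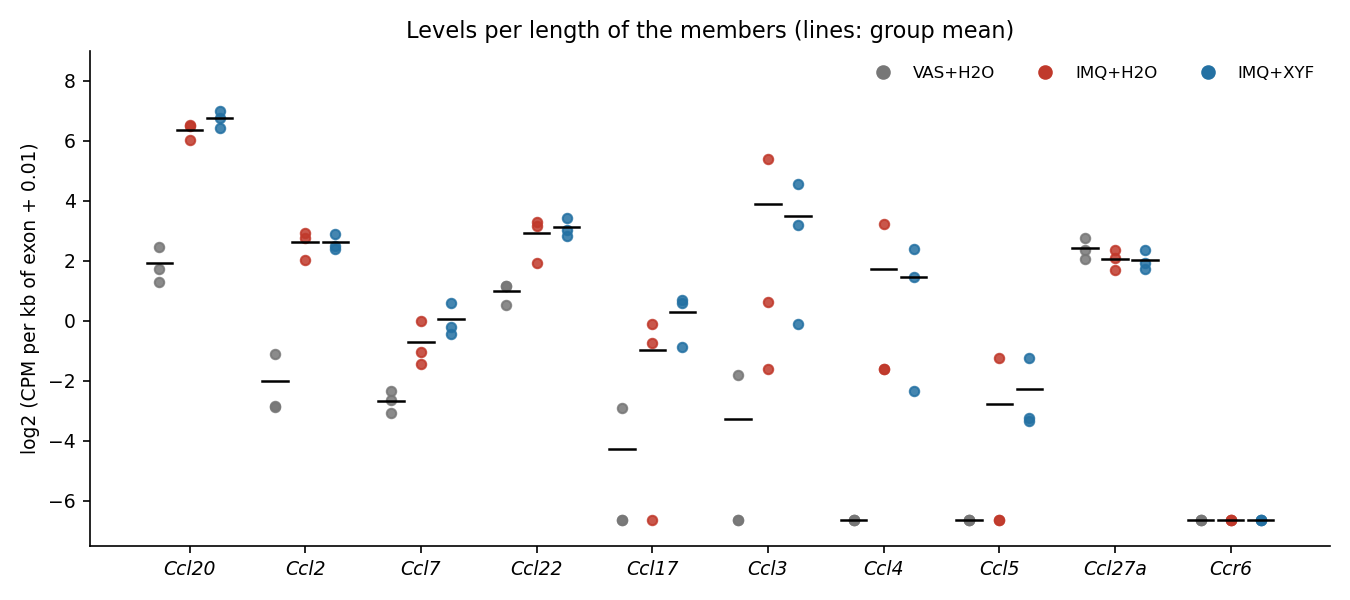
Levels of the 10 genes per exon length, as log2 of CPM per kb plus 0.01, in VAS+H2O, IMQ+H2O and IMQ+XYF. Points are libraries, and lines are the log2 of the group means of CPM per kb. Ccl20 rises from 3.75 to 82.5 and 107 CPM per kb, Ccl27a stays between 3.18 and 6.79 in every library, and the points of Ccl3 and Ccl4 are spread widely within IMQ+H2O.

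Across libraries, the genes with profiles nearest to Ccl20 were Gm45518, BC117090 and Krt16, measured as the root mean square difference of centred log2 CPM over 9 libraries among 14764 genes. Krt16, a keratin of activated keratinocytes, was at 56.9 to 83.9 CPM in VAS+H2O and 1967 to 4020 CPM in the 6 imiquimod libraries. The difference was 0.40 for Gm45518, 0.44 for BC117090 and 0.44 for Krt16. Nearest to Ccl27a were Gm13306 with 0.09, Ccl27b with 0.09 and Prkacb, a catalytic subunit of protein kinase A, with 0.15. Ccl27b belongs to the same gene family, and its counts were 0.568 to 0.701 of those of Ccl27a in all 9 libraries. Gm13306 had nearly the counts of Ccl27b, such as 461 and 457 in VAS+H2O replicate 1 and 275 for each in IMQ+H2O replicate 3. Reads divided among near-identical copies could by themselves make such profiles alike, and this was not tested. No such list could be made for Ccr6.

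The receptors of these ligands were followed next. Ccr4, the receptor of Ccl17 and Ccl22, had means of 26.2 ± 3.96 CPM with VAS+H2O, 23.8 ± 5.63 with IMQ+H2O and 24.1 ± 3.63 with IMQ+XYF (SD, n = 3 each), and was not called in any comparison. Ccr10, the receptor of Ccl27, had 25 to 63 counts per library and a log2 fold change of -0.48 in IMQ+H2O over VAS+H2O (adjusted p = 0.298 in edgeR). Ccr1, a receptor of Ccl3, Ccl5 and Ccl7, had 18, 7 and 6 counts with VAS+H2O, 12, 51 and 794 with IMQ+H2O and 659, 43 and 177 with IMQ+XYF. Its 3 highest libraries were those highest in Ccl3. Its log2 fold change of 4.66 in IMQ+H2O over VAS+H2O had an SE of 1.44 and missed the threshold in edgeR (adjusted p = 0.0597), while DESeq2 called it (adjusted p = 0.0058). Ccr2, the receptor of Ccl2 and Ccl7, had 0 to 18 counts per library. Ccr3, a receptor of Ccl5 and Ccl7, had 4 counts in 1 library and 0 in the other 8, and Ccr8 had at most 5 counts in any library.

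Of 28 other CC chemokines and CC or atypical receptors in the table, 15 were tested in IMQ+H2O against VAS+H2O, with 1 called higher and 1 lower. Of all genes tested there, 3.64% were called higher and 4.04% lower. Ccl1, a ligand of CCR8, rose from 0, 0 and 3 counts in VAS+H2O to 43, 91 and 48 in IMQ+H2O and 135, 42 and 54 in IMQ+XYF. Its summed counts in IMQ+H2O and VAS+H2O gave a ratio of 63.1 per library size, with a 95% counting interval of 21.3 to 309. The adjusted p in edgeR was 0.010. Ccl1 passed the count filter through IMQ+H2O, so only a rise could be called for it. Ackr4, an atypical receptor that scavenges CCL19, CCL21 and CCL25, fell between VAS+H2O, at 65.6 ± 15.3 CPM, and IMQ+H2O, at 31.5 ± 3.70 CPM (SD, n = 3 each). The log2 fold change was -1.07 with an SE of 0.17 (adjusted p = 0.0117 in edgeR). It was at 61.1, 53.1 and 82.6 CPM with VAS+H2O, 30.6, 35.6 and 28.4 CPM with IMQ+H2O and 37.2, 33.6 and 27.1 CPM with IMQ+XYF, with no overlap between Vaseline and imiquimod libraries. The median log2 fold change of the 15 genes was -0.15.

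Between IMQ+XYF and IMQ+H2O, 16 of the 28 were tested and 0 were called by edgeR or by DESeq2, with 0 at an unadjusted p under 0.05. The shares of all genes were 0.0281% by edgeR, 0.757% by DESeq2 and 5.43% at that unadjusted p in edgeR. At such shares, 0 of 16 does not set this list apart from other genes. Of all genes tested in IMQ+XYF against VAS+H2O, 4.58% were called higher and 3.05% lower. Of the 15 genes of this list tested there, 3 were called higher and 1 lower. These were Ccl1, Ccr1 and Ccr7, the receptor that guides dendritic cells to lymph nodes, and Ackr4, with Ccr1 and Ccr7 named here after their values were seen. Ccr7 had 19, 11 and 0 counts with VAS+H2O, 17, 66 and 114 with IMQ+H2O and 170, 58 and 65 with IMQ+XYF. Ccl1 and Ccr1, scarce in VAS+H2O, passed the count filter through IMQ+XYF, so only a rise could be called for them.

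**Figure D5:**
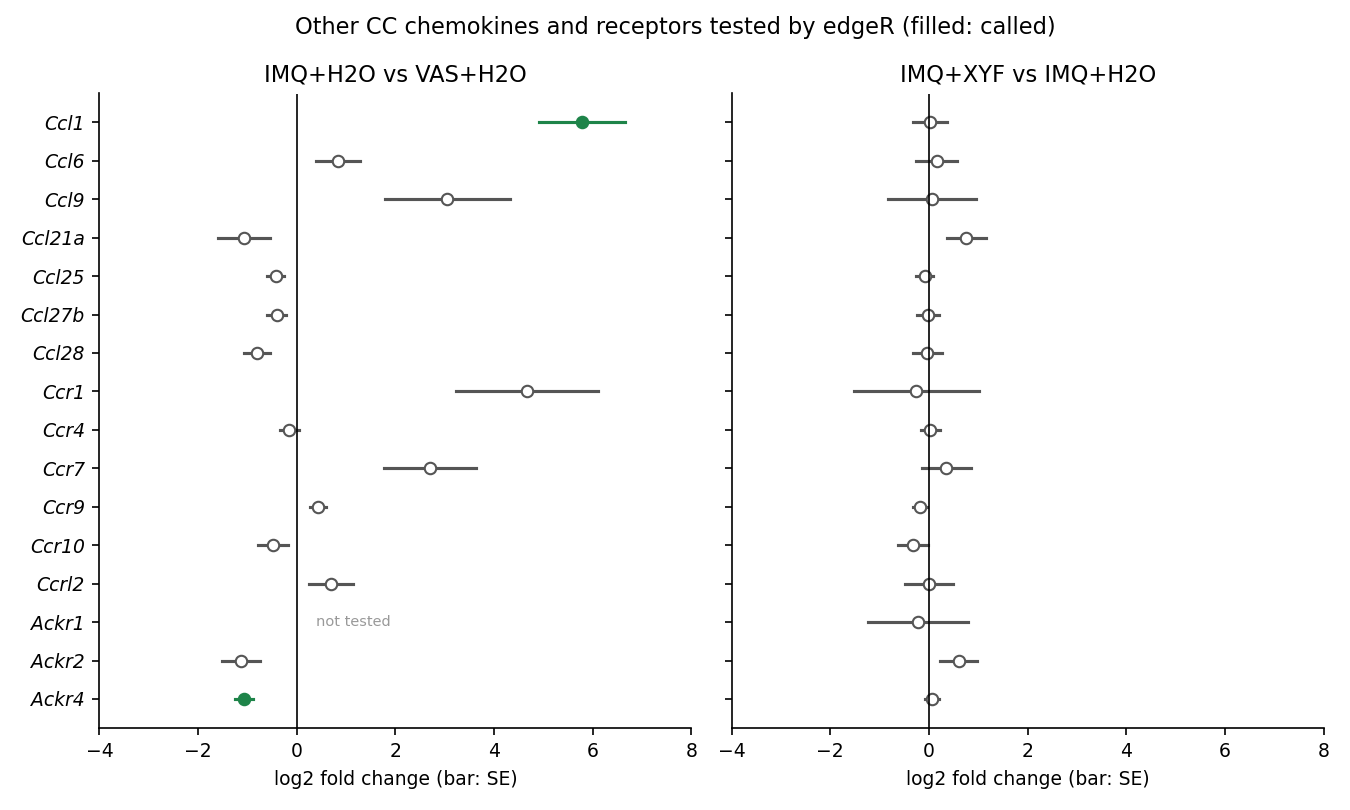
Log2 fold changes of the other CC chemokines and receptors that passed the count filter, in IMQ+H2O against VAS+H2O and in IMQ+XYF against IMQ+H2O, with bars of 1 SE from edgeR. Filled points were called. Ccl1 is higher and Ackr4 lower in the first comparison, no gene is called in the second, and the bars of Ccr1 are the widest in both.

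A list of 20 genes held IL-17 family cytokines and their receptors, cytokines and NF-κB genes that act upstream of Ccl20, and genes of IL-17-producing T cells. Of 16 tested in IMQ+H2O against VAS+H2O, 2 were called higher and 0 lower, where the shares of all genes tested were 3.64% and 4.04%. Il17c, an IL-17 family cytokine of epithelial cells, had 8, 2 and 0 counts with VAS+H2O, 45, 29 and 58 with IMQ+H2O and 47, 24 and 34 with IMQ+XYF, with a log2 fold change of 3.81 and an SE of 0.77 (adjusted p = 0.0185 in edgeR). Il1a, an alarm cytokine stored in keratinocytes, rose between VAS+H2O, at 5.76 ± 0.571 CPM, and IMQ+H2O, at 25.8 ± 7.64 CPM (SD, n = 3 each). Its log2 fold change was 2.15 with an SE of 0.23 (adjusted p = 0.0058 in edgeR). Il17c, scarce in VAS+H2O, passed the count filter through IMQ+H2O, so only a rise could be called for it. Il17a had 0 counts in all 9 libraries and Il17f had 3 counts in VAS+H2O replicate 1 and 0 elsewhere. Il23r, the receptor of IL-23, had 0 to 17 counts per library (adjusted p = 0.753).

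In IMQ+XYF against IMQ+H2O, 0 of 16 genes of this list were called by edgeR or by DESeq2, and 0 had an unadjusted p under 0.05. With 0.0281%, 0.757% and 5.43% of all genes passing these rules, 0 of 16 does not set the list apart. In IMQ+XYF against VAS+H2O, 4 were called higher, Il17c, Il1a, Il1b and Il23a, the last 2 named after their values were seen. Of all genes tested in that comparison, 4.58% were called higher. Il17c and Il23a, scarce in VAS+H2O, passed the count filter through IMQ+XYF, so only a rise could be called for them. Markers of dendritic epidermal T cells, the resident γδ T cells of mouse epidermis, summed to 68.6 to 78.9 CPM in VAS+H2O, 41.2 to 57.2 CPM in IMQ+H2O and 36.7 to 55.9 CPM in IMQ+XYF. By edgeR, 0 of these 6 markers were called in any of the 3 comparisons. The shares of all genes called were 7.68% in IMQ+H2O against VAS+H2O, 0.0281% in IMQ+XYF against IMQ+H2O and 7.64% in IMQ+XYF against VAS+H2O.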

How the data were processed

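Epidermal RNA of 9 libraries was analysed, 3 per group, with groups taken from the sample titles. The authors prepared TruSeq libraries, aligned reads with STAR to GRCm38 (Ensembl annotation) and assembled transcripts with StringTie. The submitters' processing notes also name FastQC, Cuffnorm and DESeq 1.22.1, and STAR 2.5. The authors deposited whole-number counts per gene, without normalization. The counting tool and its strand setting are not given in the sources used here, and low values may be affected by it. Of 52550 genes in the deposited table, 21327 are at 0 throughout.

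Members were matched by symbol. The members and lists were chosen with earlier results of these data known, and counts for them are not independent evidence. R 4.3.3, edgeR 4.0.16 and DESeq2 1.42.0 were used. Each pair of groups was fitted on its 6 libraries (TMM, filterByExpr, quasi-likelihood test), with Benjamini-Hochberg adjustment over all genes tested. Standard errors came from the test statistic. CPM used TMM factors over the 18492 genes passing the filter in all 9 libraries. Intervals of edgeR fold changes rest on the spread between libraries. Intervals of ratios of summed counts, and floors, cover counting error only, since no molecular identifiers are described. The fits were tested on simulated data.

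Genes named were the members, the receptors of their ligands, called genes of the other CC list and of the IL-17 list, with Il17a, Il17f and Il23r, and the 3 nearest profiles to Ccl20 and Ccl27a among genes of at least 1 CPM. Marker genes serve only as checks, and other names are marked as chosen after their values were seen. Alternatives were DESeq2, RLE size factors, no low-count filter, a fit to all 9 libraries, a block for replicate number, a call on the adjusted p without a fold limit, and libraries left out. Ccl21c and Trgv5 were not analysed here, nor was the dermis, and some genes that this rule names are not reported here.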

Additional observations from a re-analysis of the deposited data

How the results depend on the processing

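Ccl20 and Ccl2 were called against VAS+H2O, and no member was called between IMQ+XYF and IMQ+H2O, in every alternative run. In IMQ+H2O against VAS+H2O, DESeq2 and the fit of all 9 libraries each called 5 other CC genes and 4 IL-17 genes, against 2 and 2. The adjusted p alone called 6 IL-17 genes and 3986 genes in all, against 1383. Leaving out 1 library gave 2 to 4 members, 1 to 3 other CC genes, 1 to 2 IL-17 genes and 711 to 1314 genes in all. Without VAS+H2O replicate 2 and IMQ+H2O replicate 3 these were 2 members, 1 IL-17 gene and 506 genes in all. In IMQ+XYF against IMQ+H2O, 5 genes in all were called, but 129 by DESeq2, 1 with all 9 libraries, 0 to 5 with 1 library left out and 0 without IMQ+H2O replicate 3 and IMQ+XYF replicate 1. In IMQ+XYF against VAS+H2O, the adjusted p alone called 9 IL-17 genes, against 4, and 5152 genes in all, against 1371. Leaving out 1 library gave 5 to 7 members, 2 to 4 other CC genes, 2 to 4 IL-17 genes and 996 to 1350 genes in all. Without VAS+H2O replicate 2 and IMQ+XYF replicate 1 these were 3 members, 2 other CC genes and 843 genes in all. Fewer samples in a fit leave less power, and the cause of the other differences was not tested.

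Same-numbered libraries correlated at -0.13 to 0.11 in their deviations from the group means, so the numbers were not taken as pairs. With the replicate block, the called members were 2 in IMQ+H2O against VAS+H2O, the genes in all 0 in IMQ+XYF against IMQ+H2O, and the IL-17 genes 1 in IMQ+XYF against VAS+H2O. Between IMQ+XYF and IMQ+H2O the block turned Ccl3 to 0.28 and Ccl4 to 0.31 on the log2 scale. In the same comparison, none of the values that changed sign passed the threshold. With 1 library left out, Ccl2 ran from -0.22 to 0.20, Ccl3 from -1.55 to 3.57, Ccl4 from -1.20 to 3.12, Ccl22 from -0.12 to 0.44 and Ccl27a from -0.25 to 0.13. Without IMQ+H2O replicate 3 and IMQ+XYF replicate 1, Ccl2 was at -0.38, Ccl3 at 2.40 and Ccl22 at 0.49. Ccr6, Ccl5, Ccl4 and Ccl17 had 0 to 3 counts per library in VAS+H2O, and lower levels there were not detectable at this depth.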
